A study of Mus musculus with 8 samples.

Results

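The 47 genes described here encode the working parts of the lysosome: 16 genes of the vacuolar proton pump, 15 acid hydrolases, 3 soluble cofactors, 9 membrane proteins, 3 proteins of sorting and of the endoplasmic reticulum, and Tfeb, a transcription factor of lysosomal genes. They were chosen by name from a list of symbols, with earlier results of these data known. Their shares of calls, set beside those of all tested genes, are thus a description. Each member was matched to 1 of the 55573 Ensembl gene IDs that were counted. All 47 passed the filter on low counts, as did 18205 genes in all. RNA-seq was done on tdTomato-marked cells sorted from the cortex of C57BL/6 mice. The KO mice were PV-Cre/tdTomato/Dnmt1 loxP2 at 6 and 18 months of age, and the WT mice were PV-Cre/tdTomato/Dnmt1 wild-type at the same ages. PV-Cre expresses the recombinase from the parvalbumin locus, tdTomato is a red reporter that both genotypes carry, and exons 4 and 5 of Dnmt1, the maintenance DNA methyltransferase, lie between loxP sites in the KO mice. The floxed allele came from a B6;129Sv stock. Each of the 4 groups had 2 libraries, which the design calls technical replicates made from pooled cells, so every p-value below measures the spread between libraries and may leave out the spread between animals.

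Lysosomes degrade proteins, lipids, glycans and glycogen in an acid lumen. The vacuolar proton pump makes that acidity: its V1 sector burns ATP in the cytosol and turns a ring in the membrane-bound V0 sector, which carries protons inwards. Hydrolases work in the lumen after delivery by sorting receptors, membrane proteins coat the limiting membrane and export lipids and ions, and Tfeb is known to raise the transcription of many of these genes through E-box motifs in their promoters. Loss of many of these genes causes storage disease of the brain in humans, with damage to neurons and glia.

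Library totals were between 6008175 and 13551218 counts. WT at 6 months stood apart from the other groups, with Pearson's r of log2 CPM over genes of 0.9 to 0.951 against their libraries, where libraries of the other 3 groups gave 0.958 to 0.977 with each other. The 2 WT libraries of 6 months also had the smallest totals, 6008175 and 6024905 counts. A single gene, Gm26917, took 9.97% and 9.29% of their counts, against 1.67% to 4.98% in the other libraries. Mitochondrial genes took 1.6% and 1.16% of their counts, against 2.28% to 7.19% elsewhere. The part of these differences in the distance of this group was not tested. The labelled cell type was not borne out by its defining gene, since Pvalb had 6 reads over the 8 libraries. Dnmt1 itself stood at 77.2 and 75.2 CPM in KO against 97.9 and 104 CPM in WT at 6 months, and at 74.3 and 76.6 CPM in KO against 80.8 and 81.1 CPM in WT at 18 months; CPM is the read count scaled to the normalised library total, and these counts are of the whole gene rather than of the deleted exons. Glial markers were high and differed between groups. The summed level of 16 oligodendrocyte markers was 33940 to 34843 CPM in KO and 15533 to 15536 CPM in WT at 6 months, and 31245 to 31692 CPM in KO and 45362 to 45562 CPM in WT at 18 months. Astrocyte markers, 14 genes, summed to 8032 to 8052 CPM in KO and 13401 to 13407 CPM in WT at 6 months, and to 9903 to 9936 CPM in KO and 4572 to 4622 CPM in WT at 18 months. Microglial markers, 16 genes, summed to 253 to 259 CPM in KO and 227 to 242 CPM in WT at 6 months, and to 167 to 174 CPM in KO and 253 to 263 CPM in WT at 18 months. None of these markers was at 0 in all libraries, and in such bulk samples fewer cells of a type and less RNA per cell cannot be told apart.

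Per exon length, the most abundant member was Psap, the precursor of the saposins that help sphingolipid breakdown, at 369 FPKM in KO and 359 FPKM in WT at 6 months and at 338 FPKM in KO and 410 FPKM in WT at 18 months (means of 2 libraries). FPKM is CPM per kilobase of merged exons and allows levels of different genes to be set side by side. Next came Lamp1, the main glycoprotein of the lysosomal membrane, with a mean of 232 FPKM over the 8 libraries, Sort1, a sorting receptor, with 123 FPKM, and Scarb2, a membrane protein that carries glucocerebrosidase to lysosomes, with 72.4 FPKM. Of the hydrolases, the aspartyl protease Ctsd had 63.8 FPKM and the asparaginyl endopeptidase Lgmn 61.9 FPKM, while the beta-galactosidase Glb1 had 4.74 FPKM and the alpha-galactosidase Gla 5.05 FPKM. Proton pump genes spanned 4.12 FPKM for Atp6v1g2 to 68.2 FPKM for Atp6ap1. The least abundant member was Cln6, a protein of the endoplasmic reticulum needed for enzyme export, at 2.47 FPKM.

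**Figure D1:**
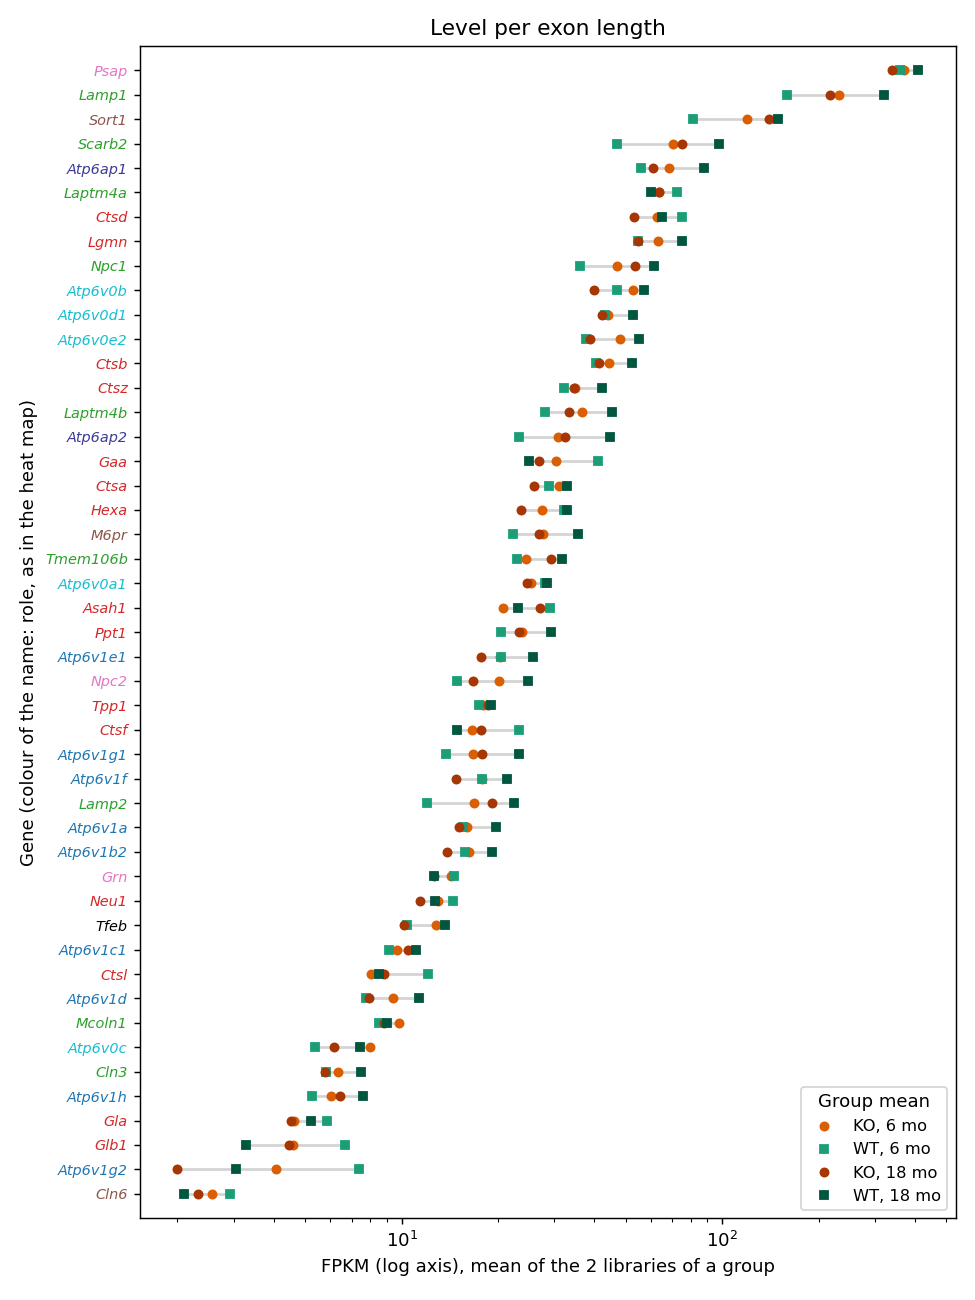
Level of each of the 47 genes in FPKM on a log axis, with 1 point for the mean of the 2 libraries of each group. Psap, Lamp1 and Sort1 lead, and the WT point at 18 months lies furthest right for 33 of the 47 genes.

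KO cells at 6 months had 16 of the 47 genes higher and 8 lower than WT, where 19.2% of all tested genes were higher and 19.6% lower (edgeR's quasi-likelihood test, Benjamini-Hochberg adjusted p under 0.05; 38.8% called in either direction). At 18 months the balance was turned: 3 genes were higher in KO and 31 lower, against 14.7% of all tested genes higher and 17.4% lower (32.1% in either direction). Over the 47 genes the median difference of KO from WT on the log2 scale was 0.10 at 6 months and -0.32 at 18 months, and that of all tested genes was 0.00 at both ages. Scaling to library totals in place of TMM moved the median of all genes by -0.05 at 6 months and 0.14 at 18 months, and gave 12 higher and 11 lower in KO at 6 months and 5 higher and 19 lower in KO at 18 months; the 12 genes no longer lower at 18 months were Atp6v1g1, Atp6v1g2, Atp6v1h, Atp6v0a1, Atp6v0d1, Ctsd, Ctsz, Ppt1, Psap, Lamp2, Npc1 and Cln3. The libraries of KO and WT did not overlap for 34 members at 6 months and 40 at 18 months, where the same held for 66.8% and 66.6% of all tested genes. Because the counts are relative, these are differences in share of the RNA.

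Most genes that were higher at 6 months were lower at 18 months. Higher at 6 months and lower at 18 months in KO were 14 genes, 29.8% of the members and 7.9% of all tested genes: Atp6v1d, Atp6v0e2, Atp6ap1, Atp6ap2, Lgmn, Ppt1, Npc2, Lamp1, Lamp2, Npc1, Scarb2, Laptm4b, M6pr and Tfeb. Under library totals Atp6v1d, Lgmn, Ppt1 and Tfeb were not called at 6 months, nor Ppt1, Lamp2 and Npc1 at 18 months. The same genes lost these calls when certain single libraries were left out. Opposite to the 14 genes were Ctsf, Glb1 and Asah1, lower at 6 months and higher at 18 months in KO. They are 6.38% of the members, and the pattern held for 6.38% of all tested genes. DESeq2 did not call Glb1 at either age or Asah1 at 18 months. Atp6v1g2 and Ctsd were lower in KO at both ages (4.26% of the members and 2.74% of all tested genes), with Atp6v1g2 close to the threshold at 18 months (edgeR adjusted p = 0.0493). Another 15 were lower in KO at 18 months with no call at 6 months, which is 31.9% of the members and 6.75% of all tested genes. No call was made at either age for 8 members (17%, against 47.7% of all tested genes), namely Atp6v1c1, Tpp1, Gla, Neu1, Grn, Mcoln1, Tmem106b and Cln6. Whether a gene is called also depends on its number of reads. The shares of all tested genes, here and elsewhere, were not matched to the level of the members. By group mean, 33 of the 47 genes were highest in WT at 18 months (70.2%, against 27.6% of all tested genes). WT at 6 months was highest for 12 (25.5%, against 38.6%), KO at 6 months for 2 (4.26%, against 11.2%) and KO at 18 months for 0 (against 22.6%).

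**Figure D2:**
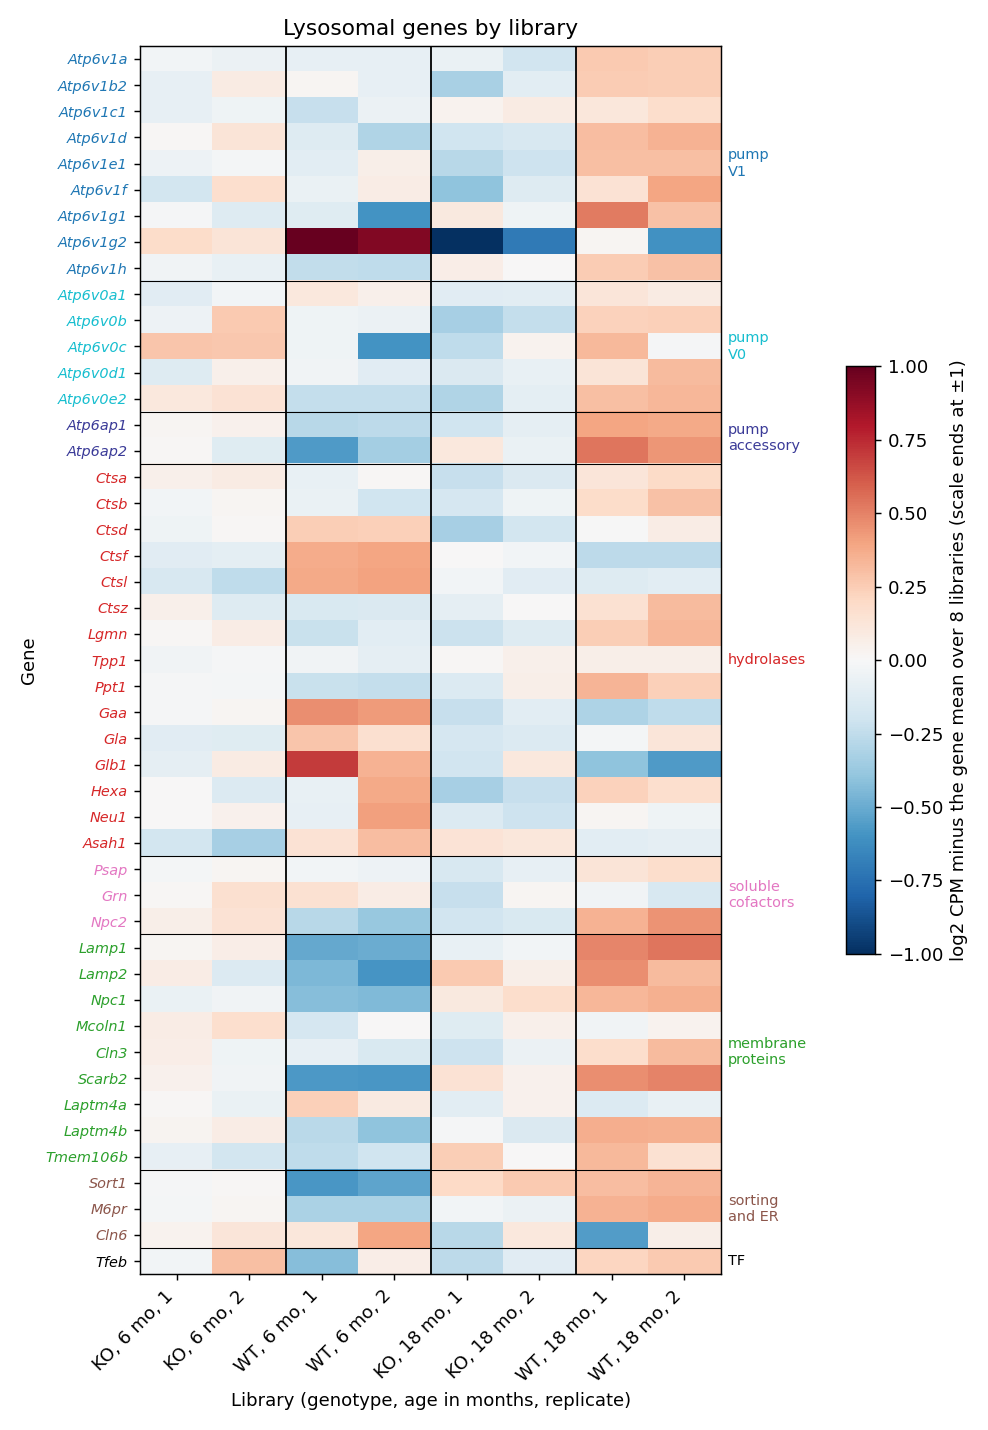
Log2 CPM of the 47 genes in each of the 8 libraries, minus the mean of the gene, ordered by role; blue is below and red above the mean, and the scale ends at 1 either way. The 2 WT libraries at 18 months are red for most proton pump and membrane genes, and the 2 WT libraries at 6 months are blue for Lamp1, Scarb2 and Sort1 and red for Gaa, Ctsf and Ctsl.

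**Figure D3:**
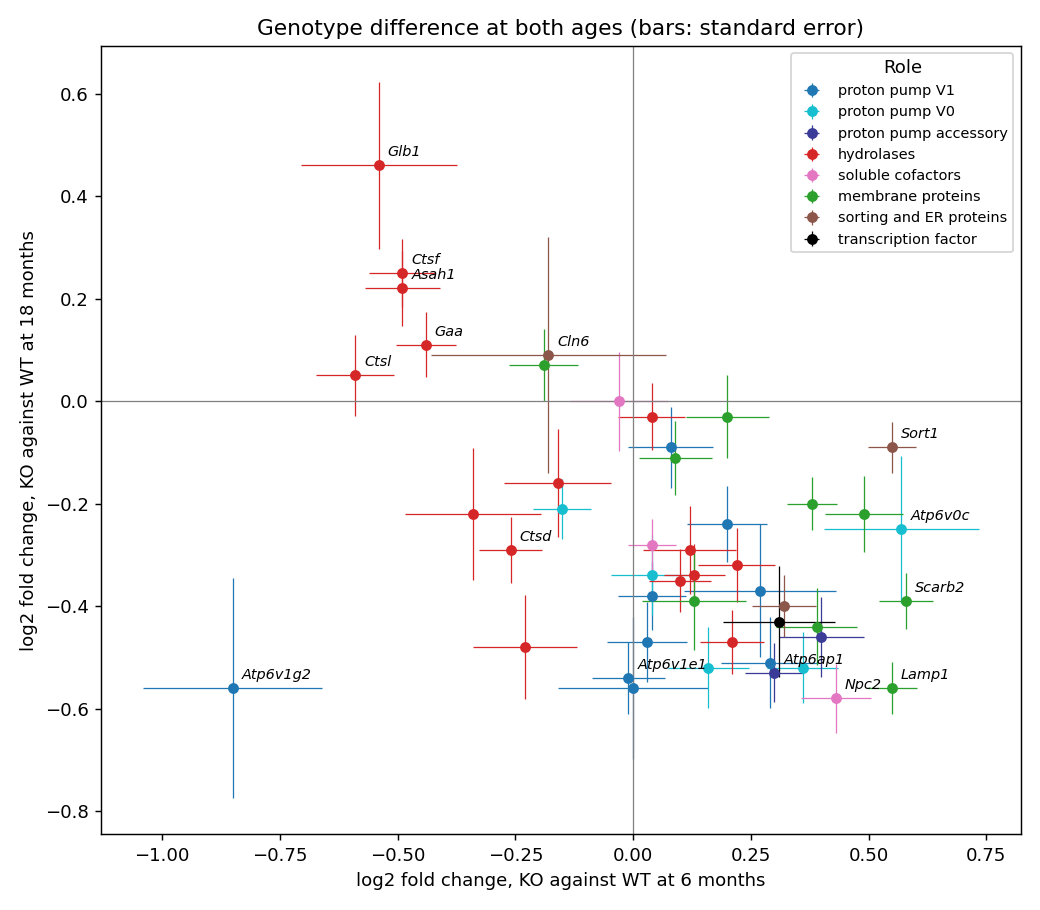
Log2 fold change of each gene in KO relative to WT, at 6 months (horizontal) and at 18 months (vertical), coloured by role, with standard errors as bars. Most proton pump and membrane genes lie below 0 at 18 months, and 5 hydrolases (Glb1, Ctsf, Asah1, Gaa, Ctsl) lie at the upper left.

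Promoter sequence was available for 37 of the 47 genes, as RefSeq windows of the GRCm38.p6 build from 250 bases before to 50 bases after the start. The E-box core CACGTG, which reads the same on both strands, was in the windows of 14 of these 37 genes (37.8%) and of 2187 of 27025 RefSeq genes (8.09%). The longer TCACGTGA, which contains the core and is also the same on both strands, was in 7 of the 37 genes (18.9%) and in 304 RefSeq genes (1.12%). By role, the core was found for 8 of 13 hydrolases, 3 of 12 proton pump genes and 3 of 7 membrane proteins. The windows below, chosen after values were seen, belong to genes with the core whose levels moved in opposite ways, so that the motif can be seen beside both patterns; capitals mark the core. The first 3 genes were lower in KO at 18 months, and Lamp1 and Lgmn were higher in KO at 6 months. Lgmn has another window, chr12:102439679-102439978, which lacks the core and is not shown.
Lamp1, chr8:13158911-13159210, + strand: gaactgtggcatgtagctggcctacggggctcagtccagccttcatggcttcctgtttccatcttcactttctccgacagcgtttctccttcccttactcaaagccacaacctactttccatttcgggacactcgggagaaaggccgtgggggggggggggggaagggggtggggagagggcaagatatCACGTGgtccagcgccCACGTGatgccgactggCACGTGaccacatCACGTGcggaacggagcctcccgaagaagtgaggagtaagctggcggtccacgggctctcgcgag
Lgmn, chr12:102439043-102439342, - strand: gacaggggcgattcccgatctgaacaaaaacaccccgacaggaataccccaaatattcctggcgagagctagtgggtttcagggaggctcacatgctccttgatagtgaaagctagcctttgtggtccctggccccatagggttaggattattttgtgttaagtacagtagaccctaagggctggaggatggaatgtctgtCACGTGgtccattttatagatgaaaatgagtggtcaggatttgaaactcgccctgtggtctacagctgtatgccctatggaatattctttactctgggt
Atp6v0b, chr4:117887280-117887579, - strand: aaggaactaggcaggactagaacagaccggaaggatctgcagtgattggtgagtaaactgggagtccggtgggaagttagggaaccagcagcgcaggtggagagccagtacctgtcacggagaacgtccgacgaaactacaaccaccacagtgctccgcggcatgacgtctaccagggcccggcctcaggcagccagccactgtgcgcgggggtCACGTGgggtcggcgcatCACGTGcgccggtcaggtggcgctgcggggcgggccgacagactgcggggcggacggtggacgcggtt
The other 3 genes were lower in KO at 6 months, and Glb1 and Ctsf were higher in KO at 18 months.
Glb1, chr9:114400828-114401127, + strand: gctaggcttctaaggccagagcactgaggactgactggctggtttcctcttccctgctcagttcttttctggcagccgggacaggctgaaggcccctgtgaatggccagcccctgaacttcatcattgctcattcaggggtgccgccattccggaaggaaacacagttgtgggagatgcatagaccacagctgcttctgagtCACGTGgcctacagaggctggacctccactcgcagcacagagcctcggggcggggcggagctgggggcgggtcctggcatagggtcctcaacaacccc
Gaa, chr11:119267713-119268012, + strand: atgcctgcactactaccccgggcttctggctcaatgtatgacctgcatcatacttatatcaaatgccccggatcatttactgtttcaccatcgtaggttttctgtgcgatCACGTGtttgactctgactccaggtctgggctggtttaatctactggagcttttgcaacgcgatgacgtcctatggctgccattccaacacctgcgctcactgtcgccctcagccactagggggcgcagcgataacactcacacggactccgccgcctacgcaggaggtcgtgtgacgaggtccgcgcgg
Ctsf, chr19:4854915-4855214, + strand: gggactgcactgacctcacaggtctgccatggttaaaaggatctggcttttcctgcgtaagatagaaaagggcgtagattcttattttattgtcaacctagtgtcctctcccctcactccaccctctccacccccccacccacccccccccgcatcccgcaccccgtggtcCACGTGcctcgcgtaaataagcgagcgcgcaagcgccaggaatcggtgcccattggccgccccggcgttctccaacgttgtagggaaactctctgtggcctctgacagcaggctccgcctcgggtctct
Of the genes with a window, the core was found for 7 of 21 whose genotype difference moved down between the ages, for 4 of 5 whose difference moved up and for 3 of 11 with no such call. The motif thus occurred with either direction. A match in such a window is a description of the letters and not of binding.

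Of the 9 V1 genes, the ATP-burning sector of the pump, 8 were lower and 0 higher in KO at 18 months. That is 88.9% lower, against 17.4% of all tested genes. At 6 months 1 was higher and 1 lower, or 11.1% each, against 19.2% and 19.6% of all tested genes. DESeq2 did not call Atp6v1g1, Atp6v1g2 or Atp6v1h lower at 18 months (adjusted p = 0.128, 0.128 and 0.063). Atp6v1e1, a stator stalk subunit, had 70.9 and 74.3 CPM in KO and 106 CPM in both WT libraries at 18 months, with no overlap. This was 1.46-fold lower in KO (-0.54 on the log2 scale, SE 0.0705, edgeR adjusted p = 1.63e-06), while at 6 months it had 82.6 and 84.7 CPM in KO and 79.5 and 89.3 CPM in WT (adjusted p = 0.906). Atp6v1b2 and Atp6v1a form the nucleotide-binding head. Atp6v1b2 had 68.3 and 79.5 CPM in KO and 102 CPM in both WT libraries at 18 months, a log2 fold change of -0.47 (edgeR adjusted p = 5.07e-05). For Atp6v1a the levels were 95.1 and 87.2 CPM in KO and 120 and 118 CPM in WT, a log2 fold change of -0.38 (edgeR adjusted p = 7.03e-05). Both genes were apart at 18 months, and at 6 months their adjusted p was 0.788 and 0.715.

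Atp6v1d, a subunit of the rotating shaft, showed the turn between ages: 41.7 and 45.1 CPM in KO and 37.7 and 33.5 CPM in WT at 6 months, and 35.9 and 37.0 CPM in KO and 51.0 and 52.6 CPM in WT at 18 months. The groups did not overlap at either age. Its call at 6 months (log2 fold change 0.29, adjusted p = 0.0298) was lost without KO replicate 2 or WT replicate 2 of that age (adjusted p = 0.151 and 0.199), whereas at 18 months it was 0.51 lower on the log2 scale, as -0.51 with adjusted p = 9.05e-05. Atp6v1h, a regulatory subunit, had 59.8 and 57.9 CPM in KO and 51.5 and 51.2 CPM in WT at 6 months, which was not called (adjusted p = 0.0719), and 64.0 and 61.2 CPM in KO and 72.9 and 74.7 CPM in WT at 18 months (log2 fold change -0.24, adjusted p = 0.015). Atp6v1f and Atp6v1g1, subunits of the shaft and the stator, were also lower in KO at 18 months, by -0.56 and -0.37 on the log2 scale. The calls of these 3 genes were lost when certain single libraries were left out, while the values stayed below 0. Atp6v1f had -0.42 without KO replicate 1 of 18 months (adjusted p = 0.0691) and -0.39 without WT replicate 2 (adjusted p = 0.139). Atp6v1h kept its size, at -0.24, -0.21 and -0.20 without WT replicate 1, KO replicate 2 or WT replicate 2 of 18 months (adjusted p = 0.0605, 0.11 and 0.189). Atp6v1g1 had -0.44 without KO replicate 1, -0.30 without KO replicate 2 and -0.25 without WT replicate 1 of 18 months (adjusted p = 0.0506, 0.175 and 0.252), and -0.35 without KO replicate 2 of 6 months (adjusted p = 0.0517). Atp6v1c1 was not called at either age.

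The paralogs of the G subunit differed. Atp6v1g2, the isoform known from neurons, was the member with the largest fall at 6 months, with 10.4 and 10.0 CPM in KO and 19.6 and 17.4 CPM in WT (1.81-fold lower, -0.85 on the log2 scale, SE 0.19, edgeR adjusted p = 0.000854). At 18 months it had 4.43 and 5.61 CPM in KO and 9.28 and 6.00 CPM in WT, where the groups lay close together without overlap. There its adjusted p of 0.0493 became 0.493 without WT replicate 1 and 0.315 without KO replicate 1 of that age, and 0.0597 and 0.0671 without KO replicate 1 or 2 of 6 months. Atp6v1g2 was also not called at 18 months by DESeq2 (-0.60, adjusted p = 0.128). Nor was it under upper-quartile scaling (adjusted p = 0.0624), without the filter (0.06) or in the pairwise fit (0.0536). Atp6v1g1, the form found in all tissues, had 19.7 and 18.2 CPM in KO and 18.3 and 13.2 CPM in WT at 6 months (adjusted p = 0.198). At 18 months Atp6v1g1 had 21.2 and 19.2 CPM in KO and 28.5 and 24.3 CPM in WT. The FPKM of Atp6v1g2 over that of Atp6v1g1 was 0.245 in KO and 0.541 in WT at 6 months, while at 18 months it was 0.113 in KO and 0.13 in WT. Beside this, 10 markers of GABA neurons summed to 766 CPM in KO and 1268 CPM in WT at 6 months and to 852 CPM in KO and 620 CPM in WT at 18 months. The median over the 9 tested GABA markers was nevertheless -0.43 on the log2 scale in KO relative to WT at 18 months, with 2 genes higher and 2 lower. Parvalbumin interneuron markers, 9 genes, summed to 172 CPM in KO and 340 CPM in WT at 6 months and to 148 CPM in KO and 182 CPM in WT at 18 months. Excitatory neuron markers, 10 genes, summed to 230 CPM in KO and 244 CPM in WT at 6 months and to 54.0 CPM in KO and 86.2 CPM in WT at 18 months. The parvalbumin and excitatory sums were thus lower in KO at each age, while the GABA sum was higher in KO at 18 months. The excitatory gap at 6 months was small, with a median of -0.05 on the log2 scale and 2 of 9 tested markers lower. The part of neurons in the level of Atp6v1g2 was not tested.

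Of the 5 V0 genes, 4 were lower in KO at 18 months (80%, against 17.4% of all tested genes). At 6 months 2 were higher in KO (40%, against 19.2%). Atp6v0e2, a small subunit of the membrane sector, had 113 and 116 CPM in KO and 89.4 and 89.0 CPM in WT at 6 months (log2 fold change 0.36, edgeR adjusted p = 0.000489). At 18 months it had 85.4 and 98.3 CPM in KO and 130 and 132 CPM in WT (-0.52, edgeR adjusted p = 2.63e-06). Both ages were free of overlap, in opposite directions. Atp6v0b, a proteolipid of the rotating ring, had 79.1 and 84.4 CPM in KO and 117 and 118 CPM in WT at 18 months (-0.52, edgeR adjusted p = 1.47e-05), and was not called at 6 months, where the KO libraries differed from each other at 96.1 and 120 CPM. Without KO replicate 1 of that age, its log2 fold change of 0.16 became 0.32 with adjusted p = 0.00739. Atp6v0c, the main ring proteolipid, had 27.0 CPM in both KO libraries and 21.7 and 14.8 CPM in WT at 6 months. That difference of 0.57 on the log2 scale (adjusted p = 0.00801) became 0.32 without WT replicate 2 (adjusted p = 0.183), and Atp6v0c has pseudogene copies with which it may share reads. Atp6v0d1, which joins the ring to the shaft, and Atp6v0a1, the proton path subunit of synapses, were lower in KO at 18 months by -0.34 and -0.21 on the log2 scale, with adjusted p of 0.147 for Atp6v0d1 and 0.0652 for Atp6v0a1 without WT replicate 2, and 0.0883 for Atp6v0a1 without WT replicate 1.

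Both accessory proteins of the pump were higher in KO at 6 months and lower in KO at 18 months. Atp6ap1, which aids assembly of the V0 sector, had 205 and 209 CPM in KO and 167 and 170 CPM in WT at 6 months (0.30 on the log2 scale, SE 0.0614, edgeR adjusted p = 0.000399). It had 177 and 190 CPM in KO and 266 and 265 CPM in WT at 18 months (-0.53, SE 0.0576, edgeR adjusted p = 1.12e-07). Atp6ap2, also known as the prorenin receptor, had 84.1 and 76.8 CPM in KO and 56.3 and 65.8 CPM in WT at 6 months (0.40, edgeR adjusted p = 0.00107), and 89.6 and 79.6 CPM in KO and 121 and 114 CPM in WT at 18 months (-0.46, edgeR adjusted p = 4.99e-05). Neither gene overlapped between genotypes at either age. Of the isoforms outside the member list, Atp6v0a2 and Tcirg1 stood at 12.6 and 13.3 FPKM over the 8 libraries beside 26.7 FPKM for Atp6v0a1, while the kidney forms Atp6v1b1 and Atp6v0a4 were at 0.261 and 0.0294 FPKM and Atp6v0d2 had 0 reads.

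Hydrolases were mixed. Of 15, 2 were higher and 6 lower in KO at 6 months (13.3% and 40%, against 19.2% and 19.6% of all tested genes). At 18 months 3 were higher and 7 lower in KO (20% and 46.7%, against 14.7% and 17.4%). The shares of hydrolases that were higher thus lay near those of all tested genes. The 6 that were lower at 6 months were Ctsd, Ctsf, Ctsl, Gaa, Glb1 and Asah1. Ctsl, a cysteine protease, had 53.8 and 50.4 CPM in KO and 78.0 and 79.4 CPM in WT at 6 months (1.51-fold lower, log2 fold change -0.59, edgeR adjusted p = 3.07e-06). At 18 months it had 58.9 and 55.6 CPM in KO and 54.8 and 55.8 CPM in WT, which overlapped (adjusted p = 0.672). Ctsf, another cysteine protease, whose loss in mice leads to lipofuscin storage in neurons, had 83.3 and 84.1 CPM in KO and 117 and 119 CPM in WT at 6 months (-0.49, edgeR adjusted p = 3.7e-06). The order was turned at 18 months, with 90.01 and 88.1 CPM in KO and 74.9 CPM in both WT libraries (0.25, edgeR adjusted p = 0.00536). Gaa, the acid alpha-glucosidase that degrades glycogen, had 143 and 146 CPM in KO and 200 and 194 CPM in WT at 6 months (-0.44, edgeR adjusted p = 4.79e-06), and 123 and 134 CPM in KO and 117 and 121 CPM in WT at 18 months (0.11, adjusted p = 0.206). KO was below WT at the younger age for each of these 3 enzymes without overlap.

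Asah1, the acid ceramidase, had 73.6 and 66.6 CPM in KO and 92.7 and 104 CPM in WT at 6 months (log2 fold change -0.49, edgeR adjusted p = 2.52e-05). At 18 months it had 92.4 and 90.9 CPM in KO and 78.0 and 78.9 CPM in WT (0.22, adjusted p = 0.0211), a difference without overlap whose adjusted p was 0.0525 to 0.0983 when any 1 of the 4 libraries of that age was left out. Glb1 had 12.9 and 14.6 CPM in KO and 22.4 and 17.5 CPM in WT at 6 months (-0.54, adjusted p = 0.0121), and 12.1 and 14.8 CPM in KO and 10.4 and 9.31 CPM in WT at 18 months (0.46, adjusted p = 0.0346). Its adjusted p was 0.115 without KO replicate 1 and 0.181 without WT replicate 1 of 6 months, and 0.278 without KO replicate 2 and 0.241 without WT replicate 2 of 18 months. DESeq2 called neither Glb1 nor Asah1 at 18 months (adjusted p = 0.18 and 0.115), and did not call Glb1 at 6 months either (-0.52, adjusted p = 0.0832).

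Lgmn went the other way, with 144 and 150 CPM in KO and 122 and 132 CPM in WT at 6 months (log2 fold change 0.21, adjusted p = 0.0161) and 123 and 130 CPM in KO and 169 and 180 CPM in WT at 18 months (-0.47, edgeR adjusted p = 2.7e-06). The groups were apart at both ages, and the call at 6 months was lost without KO replicate 2 or WT replicate 1 (adjusted p = 0.0773 and 0.136). Ppt1, a palmitoyl thioesterase, did likewise, at 0.22 and -0.32 on the log2 scale; at 6 months it lost its call (adjusted p = 0.0748 to 0.125) without any 1 of the 4 libraries of that age, and at 18 months without KO replicate 1 (adjusted p = 0.0522). Ctsa, a carboxypeptidase that also stabilises the galactosidase and sialidase complex, had 119 and 126 CPM in KO and 152 and 159 CPM in WT at 18 months (-0.35, edgeR adjusted p = 0.000107). Ctsb, a cysteine protease, had 239 and 260 CPM in KO and 305 and 328 CPM in WT at 18 months (-0.34, edgeR adjusted p = 0.000118). Neither was called at 6 months, while at 18 months their groups did not overlap. Ctsd was lower in KO at both ages, with 144 and 150 CPM in KO and 176 CPM in both WT libraries at 6 months (-0.26, adjusted p = 0.00301), and 118 and 131 CPM in KO and 148 and 157 CPM in WT at 18 months (-0.29, adjusted p = 0.000934, but 0.056 without WT replicate 2). Hexa, a subunit of beta-hexosaminidase, and the carboxypeptidase Ctsz were lower in KO at 18 months by -0.48 and -0.29 on the log2 scale; the adjusted p of Ctsz was 0.104 without KO replicate 1 and 0.303 without WT replicate 2. The peptidase Tpp1, the sialidase Neu1 and Gla passed at neither age, with log2 fold changes of -0.34 to 0.04 at 6 months and -0.22 to -0.03 at 18 months. Without WT replicate 1 of 6 months, in which the level of Neu1 and Hexa was lower than in WT replicate 2, both were called lower in KO at that age, with adjusted p of 0.00796 for Neu1 and 0.00278 for Hexa.

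Npc2, the soluble protein that hands cholesterol to the membrane, was the cofactor that moved most. It had 107 and 113 CPM in KO and 84.1 and 78.5 CPM in WT at 6 months (1.35-fold higher, 0.43 on the log2 scale, SE 0.0743, edgeR adjusted p = 4.88e-05). At 18 months it had 89.2 and 92.1 CPM in KO and 130 and 140 CPM in WT (1.49-fold lower, -0.58, SE 0.0666, edgeR adjusted p = 3.03e-07). The genotypes were apart at both ages. Psap had 998 and 1024 CPM in KO and 992 and 976 CPM in WT at 6 months, a gap of 0.04 on the log2 scale that was not called (adjusted p = 0.58), and 905 and 951 CPM in KO and 1106 and 1143 CPM in WT at 18 months (-0.28, edgeR adjusted p = 0.000132). Under library totals that difference was -0.13 and did not pass (adjusted p = 0.0563). Grn, which encodes progranulin, had 47.2 and 52.3 CPM in KO and 52.0 and 49.4 CPM in WT at 6 months, and 39.9 and 47.5 CPM in KO and 45.8 and 41.9 CPM in WT at 18 months. Its groups overlapped at both ages, with adjusted p of 0.861 and 0.991.

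Of the 9 membrane proteins, 5 were higher and 1 lower in KO at 6 months (55.6% and 11.1%, against 19.2% and 19.6% of all tested genes). At 18 months 0 were higher and 6 lower in KO (0% and 66.7%, against 14.7% and 17.4%). Lamp1 had 609 and 630 CPM in KO and 422 and 427 CPM in WT at 6 months (1.46-fold higher, 0.55 on the log2 scale, SE 0.0528, edgeR adjusted p = 9.29e-09). It had 573 and 591 CPM in KO and 845 and 874 CPM in WT at 18 months (1.48-fold lower, -0.56, SE 0.0511, edgeR adjusted p = 7.6e-09). The KO levels lay between those of the 2 WT ages, and no groups of different genotype overlapped. Scarb2 had 454 and 429 CPM in KO and 295 and 294 CPM in WT at 6 months (0.58, edgeR adjusted p = 1.23e-08), and 487 and 453 CPM in KO and 608 and 622 CPM in WT at 18 months (-0.39, edgeR adjusted p = 5.35e-06). KO libraries of Scarb2 likewise lay between the WT ages.

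Npc1, the cholesterol exporter to which Npc2 delivers, had 525 and 536 CPM in KO and 410 and 405 CPM in WT at 6 months (log2 fold change 0.38, edgeR adjusted p = 3.14e-06). It had 589 and 622 CPM in KO and 690 and 703 CPM in WT at 18 months (-0.20, adjusted p = 0.00382), a difference that gave 0.0523 without KO replicate 1 and 0.0813 without WT replicate 2. With merged exons of 11317 bases for Npc1 and 5438 bases for Npc2, the FPKM of Npc1 exceeded that of Npc2 in every library. The FPKM ratio of Npc2 to Npc1 was 0.43 in KO and 0.415 in WT at 6 months, while at 18 months it was 0.312 in KO and 0.403 in WT. The size of this ratio depends on those lengths, which need not be those of the transcripts present. Lamp2, the second major membrane glycoprotein and a receptor of chaperone-mediated autophagy, had 172 and 149 CPM in KO and 120 and 109 CPM in WT at 6 months (0.49, edgeR adjusted p = 3.97e-05). At 18 months Lamp2 had 196 and 171 CPM in KO and 226 and 204 CPM in WT (-0.22, adjusted p = 0.023), and the call was lost without KO replicate 2 or WT replicate 1 (adjusted p = 0.268 and 0.259). The FPKM of Lamp1 was 10.4 to 15.3 times that of Lamp2 over the 8 libraries. This ratio rests on merged exons of 2675 bases for Lamp1 and 9552 bases for Lamp2. In CPM the gap was smaller, with means of 619 for Lamp1 and 160 for Lamp2 in KO at 6 months. The paralogs Laptm4b and Laptm4a, membrane proteins of late endosomes, differed in direction. Laptm4b had 69.7 and 72.1 CPM in KO and 56.8 and 51.8 CPM in WT at 6 months (0.39, edgeR adjusted p = 0.000847), and 67.7 and 61.8 CPM in KO and 88.2 and 87.5 CPM in WT at 18 months (-0.44, edgeR adjusted p = 6.18e-05). Laptm4a had 116 and 110 CPM in KO and 135 and 122 CPM in WT at 6 months (-0.19, adjusted p = 0.0418, and 0.321 without KO replicate 2, 0.36 without WT replicate 1, 0.0783 without KO replicate 1 and 0.0958 and 0.0888 without WT replicate 1 or 2 of 18 months). At 18 months Laptm4a had 107 and 118 CPM in KO and 104 and 109 CPM in WT, which overlapped (adjusted p = 0.451). Cln3, whose loss causes juvenile neuronal ceroid lipofuscinosis in humans, was lower in KO at 18 months by -0.39 on the log2 scale (adjusted p = 0.00287, but 0.0643 without KO replicate 1 and 0.12 without WT replicate 2). The cation channel Mcoln1 and Tmem106b, a regulator of lysosome size and transport, passed at neither age, although leaving out WT replicate 2 of 6 months gave Mcoln1 an adjusted p of 0.0377 and leaving out KO replicate 1 of 18 months gave Tmem106b one of 0.0241.

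**Figure D4:**
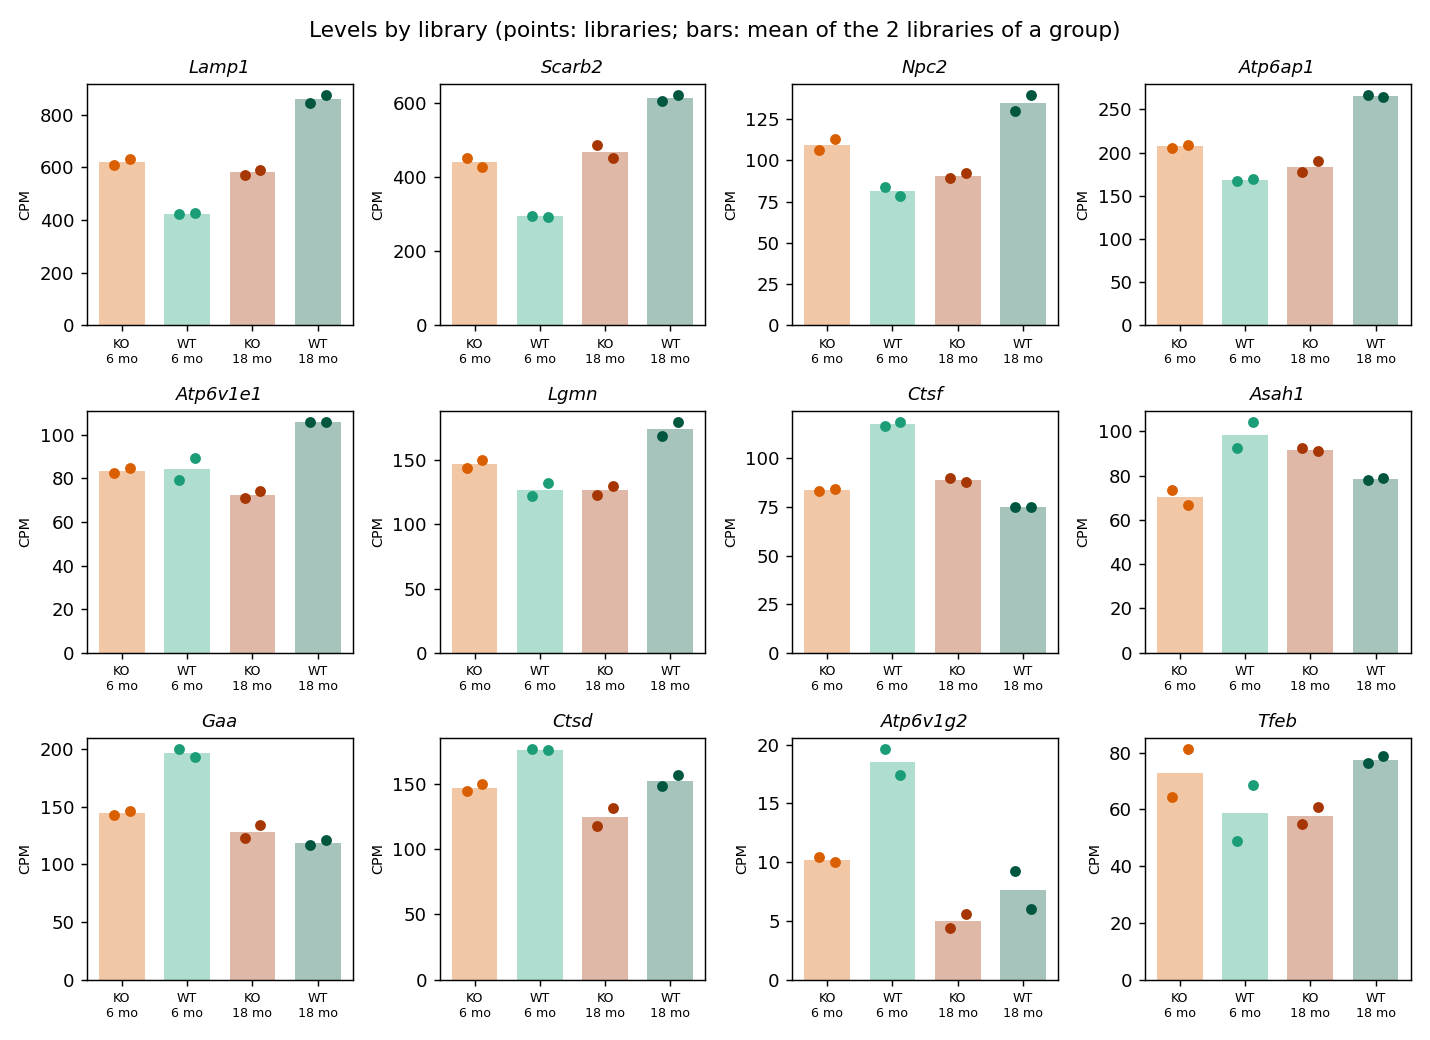
CPM of 12 genes in each library (points), with bars from 0 to the mean of the 2 libraries of a group. Lamp1, Scarb2, Npc2 and Atp6ap1 are highest in WT at 18 months and lowest in WT at 6 months, while Ctsf, Gaa and Atp6v1g2 are highest in WT at 6 months.

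Sort1, which carries enzymes and prosaposin out of the Golgi, had 896 and 914 CPM in KO and 605 and 627 CPM in WT at 6 months (1.47-fold higher, log2 fold change 0.55, edgeR adjusted p = 4.58e-09). At 18 months it had 1039 and 1085 CPM in KO and 1120 and 1148 CPM in WT, which did not overlap but did not pass (-0.09, adjusted p = 0.158). M6pr, a mannose 6-phosphate receptor, had 114 and 117 CPM in KO and 92.8 and 92.6 CPM in WT at 6 months (0.32, edgeR adjusted p = 0.000512), and 113 and 111 CPM in KO and 147 and 150 CPM in WT at 18 months (-0.40, edgeR adjusted p = 1.17e-05). A pseudogene copy of M6pr may share its reads. Cln6 had 6.07 and 6.45 CPM in KO and 6.42 and 7.80 CPM in WT at 6 months, and 4.89 and 6.38 CPM in KO and 4.01 and 6.16 CPM in WT at 18 months, overlapping at both. Tfeb had 64.5 and 81.1 CPM in KO and 48.9 and 68.7 CPM in WT at 6 months (0.31, adjusted p = 0.0459), where the groups overlapped. Without KO replicate 2 its adjusted p was 0.422 and without WT replicate 1 it was 0.6. At 18 months Tfeb had 54.9 and 60.7 CPM in KO and 76.2 and 78.7 CPM in WT, without overlap (-0.43, adjusted p = 0.00336).

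Set side by side, the roles differed in how their summed level moved. The 16 proton pump genes summed to 1253 ± 41.1 CPM in KO and 1149 ± 5.44 CPM in WT at 6 months, and to 1136 ± 27.9 CPM in KO and 1509 ± 2.63 CPM in WT at 18 months (mean ± SD, n = 2 libraries each). The 15 hydrolases summed to 1420 ± 7.04 CPM in KO and 1545 ± 22.8 CPM in WT at 6 months, and to 1339 ± 53.1 CPM in KO and 1532 ± 35.8 CPM in WT at 18 months. Under TMM scaling, hydrolases were thus lower in KO at both ages, without overlap. The pump was higher in KO at 6 months and lower at 18 months, also without overlap. At 18 months the TMM factors were 1.052 and 1.048 in KO and 0.9409 and 0.9607 in WT, so library totals narrow these gaps. For the hydrolases the lack of overlap at 18 months depended on the TMM scaling. The 9 membrane proteins summed to 2215 ± 20.6 CPM in KO and 1680 ± 12.8 CPM in WT at 6 months, and to 2321 ± 17.4 CPM in KO and 2911 ± 14.1 CPM in WT at 18 months.

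The sum of the pump over the sum of the hydrolases in a library was 0.865 and 0.9 in KO and 0.754 and 0.733 in WT at 6 months. It was 0.858 and 0.84 in KO and 1 and 0.968 in WT at 18 months. The WT ages lay at both ends, and the KO libraries of both ages lay between them. By gene, the median difference of KO from WT on the log2 scale at 6 months was 0.12 for the pump, -0.23 for the hydrolases and 0.38 for the membrane proteins; without WT replicate 2 of that age the hydrolase median was 0.01. At 18 months these medians were -0.46, -0.22 and -0.22. An exact permutation of 2 against 2 libraries cannot give a two-sided p under 0.333, so the sums and ratios carry no test. Oligodendrocyte markers moved with the pump and the membrane proteins: all 16 were higher in KO at 6 months and lower in KO at 18 months, by medians of 1.15 and -0.56 on the log2 scale. Astrocyte markers went the other way in all 14 genes, by -0.86 and 1.06, as did Ctsf, Glb1 and Asah1. Of 15 tested microglial markers 3 were higher and 1 lower in KO at 6 months, and 1 was higher and 13 lower in KO at 18 months. The part of these cell types in the lysosomal differences was not tested.

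**Figure D5:**
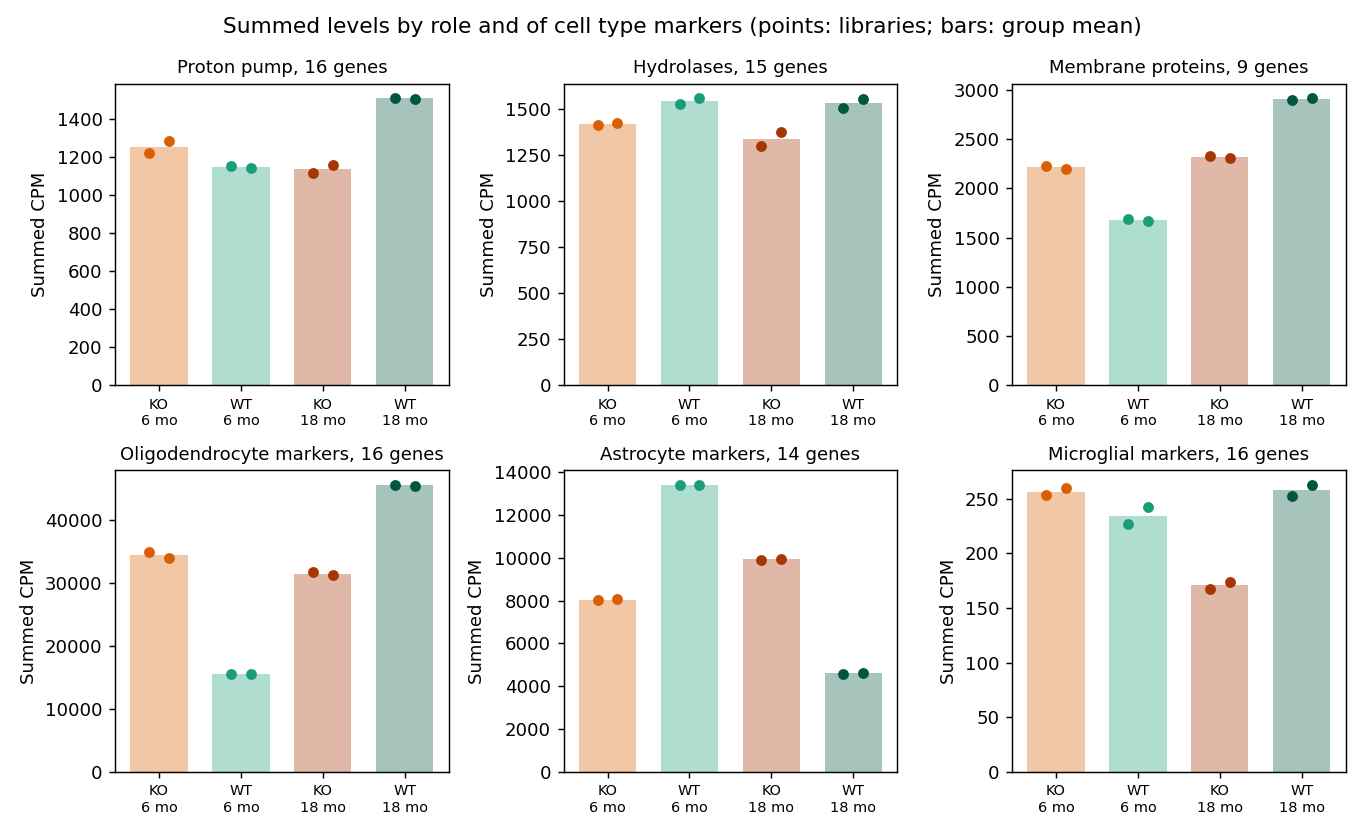
Summed CPM of the proton pump genes, hydrolases and membrane proteins (upper row) and of oligodendrocyte, astrocyte and microglial markers (lower row), with 1 point per library and bars from 0 to the group mean. Proton pump, membrane protein and oligodendrocyte sums are highest in WT at 18 months, while astrocyte sums are highest in WT at 6 months.

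Age was compared within each genotype. In WT, 30 of the 47 genes were higher and 8 lower at 18 than at 6 months, where 28.2% of all tested genes were higher and 30.8% lower (59% in either direction), with medians of 0.33 for the members and -0.04 for all tested genes. Higher were 13 of 16 proton pump genes, 7 of 9 membrane proteins and 5 of 15 hydrolases. Lower were Atp6v1g2, Laptm4a and 6 hydrolases, namely Ctsd, Ctsf, Ctsl, Gaa, Glb1 and Asah1. The largest rises were those of Scarb2 (log2 fold change 1.06, 2.09-fold, edgeR adjusted p = 6.78e-14) and Lamp1 (1.02, 2.02-fold, edgeR adjusted p = 3.26e-14). The largest fall was that of Atp6v1g2 (-1.32, edgeR adjusted p = 2.79e-06). Without 1 library, 7 of the 30 rises and 2 of the 8 falls lost their call in at least 1 fit. These were Atp6v1b2 (adjusted p up to 0.053, without WT replicate 2 of 6 months), Atp6v1c1 (0.0763, without WT replicate 1 of 6 months), Atp6v0c (0.376, without WT replicate 2 of 6 months), Atp6v0d1, Ctsa and Cln3 (0.112, 0.126 and 0.0721, without WT replicate 2 of 18 months), Tfeb and Laptm4a (0.193 and 0.0875, without WT replicate 1 of 6 months) and Ctsd (0.135, without WT replicate 1 of 18 months). Under library totals 24 of the 30 rises were kept, without Atp6v1b2, Atp6v1c1, Atp6v0b, Atp6v0c, Ctsa and Psap. The libraries of the 2 ages did not overlap for 43 members, against 77.4% of all tested genes. Beside them, all 16 oligodendrocyte markers were higher in WT at 18 months, by a median of 1.50 on the log2 scale, and all 14 astrocyte markers were lower, by a median of -1.63.

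In KO, 4 genes were higher and 14 lower at 18 than at 6 months, where 13.8% of all tested genes were higher and 17.9% lower (31.7% in either direction). The libraries of the 2 ages did not overlap for 34 members, against 67.3% of all tested genes. The 4 that were higher were Asah1, Npc1, Tmem106b and Sort1. Asah1 had the largest rise, of 0.39 on the log2 scale (edgeR adjusted p = 0.000359). The 14 lower ones were 8 proton pump genes (Atp6v1b2, Atp6v1d, Atp6v1e1, Atp6v1g2, Atp6v0b, Atp6v0c, Atp6v0e2 and Atp6ap1), 4 hydrolases (Ctsa, Ctsd, Lgmn and Gaa), Npc2 and Tfeb. Atp6v1g2 had the largest fall (-1.03, edgeR adjusted p = 0.000513) and was the 1 gene of the 14 whose call was kept in every fit that left out a library. The count of 14 was 3 without KO replicate 2 of 6 months, 3 without KO replicate 1 of 18 months and 9 without KO replicate 1 of 6 months. Under library totals 8 were higher and 3 lower, under upper-quartile scaling 5 and 8, with DESeq2's size factors in edgeR 5 and 10, and with DESeq2 itself 4 and 6. Markers of several cell types also differed between the ages in KO: 13 of 15 tested microglial markers were lower at 18 months (median -1.39 on the log2 scale), as were all 9 excitatory neuron markers (-2.69), 6 of 9 GABA neuron markers (-2.35) and 8 of 10 oligodendrocyte precursor markers (-0.54). For GABA neurons 1 marker was higher, and the sum of 10 markers went the other way, from 766 CPM at 6 months to 852 CPM at 18 months in KO. Of 16 oligodendrocyte markers 2 were higher and 8 lower (-0.20), and of 14 astrocyte markers 11 were higher and 0 lower (0.28). Their part in the lysosomal differences was not tested.

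The turn itself was tested as the interaction, the genotype difference at the later age less that at the earlier age on the log2 scale. It was negative for 29 genes and positive for 6, against 20.7% and 18.4% of all tested genes (39.1% in either direction). Negative were 13 of 16 proton pump genes, 6 of 9 membrane proteins and 5 of 15 hydrolases. Positive were 0 proton pump genes, 1 membrane protein and 5 hydrolases. Lamp1 had the most negative value (-1.11, SE 0.0735, edgeR adjusted p = 9.84e-12), followed by Npc2 (-1.01, SE 0.0998, edgeR adjusted p = 1.14e-08) and Scarb2 (-0.97, SE 0.0792, edgeR adjusted p = 3.99e-10). Of the positive ones, Ctsf (0.74, SE 0.0966, edgeR adjusted p = 9.36e-07), Asah1 (0.71, SE 0.108, edgeR adjusted p = 9e-06) and Gaa (0.55, SE 0.0898, edgeR adjusted p = 2.35e-05) had the smallest p, and Glb1 had the largest value (0.99, SE 0.232). Atp6v1g2, Ctsd and Hexa showed no such turn, with values of 0.29, -0.03 and -0.25 that did not pass. Of the 29 negative calls 25 held in every fit without 1 library, as did 5 of the 6 positive ones. The exceptions were Atp6v1f (adjusted p up to 0.239, without KO replicate 2 of 6 months), Atp6v1g1 (up to 0.124, without WT replicate 2 of 6 months), Atp6v0d1 and Ctsz (up to 0.124 and 0.114, without WT replicate 2 of 18 months) and Laptm4a (up to 0.217, without WT replicate 1 of 6 months). Under library totals, which moved the median of all genes by 0.19, the 6 positive calls and 21 of the 29 negative ones were kept. The 8 that were lost had smaller negative values there: Atp6v1a (-0.23, adjusted p = 0.0767), Atp6v1f (-0.36, 0.184), Atp6v1g1 (-0.44, 0.0861), Atp6v1h (-0.24, 0.105), Atp6v0d1 (-0.18, 0.247), Ctsz (-0.22, 0.208), Psap (-0.12, 0.218) and Cln3 (-0.32, 0.0863). DESeq2 did not call the interaction of Atp6v1f, Atp6v1g1, Ctsz and Laptm4a (adjusted p = 0.136, 0.0601, 0.0513 and 0.173). In edgeR, Laptm4a was also not called with DESeq2's size factors, under upper-quartile scaling or without the filter (adjusted p = 0.055, 0.0578 and 0.0676). Hexa passed as negative without WT replicate 2 of 6 months (adjusted p = 0.00639), and Tmem106b without KO replicate 1 of 18 months (adjusted p = 0.0107).

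Of 56 further lysosomal genes, 14 were higher and 10 lower in KO at 6 months (25% and 17.9%, near the 19.2% and 19.6% of all tested genes), and 3 were higher and 16 lower in KO at 18 months (5.36% and 28.6%, against 14.7% and 17.4% of all tested genes). Litaf, a small protein of the late endosomal membrane, had 224 and 221 CPM in KO and 97.1 and 101 CPM in WT at 6 months (log2 fold change 1.17, edgeR adjusted p = 7.86e-13), and 190 and 204 CPM in KO and 302 and 309 CPM in WT at 18 months (-0.64, edgeR adjusted p = 6.7e-09). Ctss, a protease of microglia, had 6.18 and 6.13 CPM in KO and 19.7 and 21.8 CPM in WT at 18 months (3.38-fold lower, -1.76, edgeR adjusted p = 2.7e-08). Both moved without overlap.

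Of 18 further pump genes, 14 were tested, with 3 higher and 0 lower in KO at 6 months and 0 higher and 4 lower in KO at 18 months. Those shares are 21.4% higher at 6 months, near the 19.2% of all tested genes, and 28.6% lower at 18 months, against 17.4%, of few genes. Vma21, an assembly chaperone of the V0 sector, had 15 and 12.1 CPM in KO and 6.26 and 6.17 CPM in WT at 6 months (1.12, edgeR adjusted p = 0.000171). Of 24 tested genes of Tfeb and mTORC1 signalling, 6 were higher and 6 lower in KO at 6 months, and 1 was higher and 6 lower in KO at 18 months. Of these genes, 25% were thus called in each direction at 6 months, near the 19.2% higher and 19.6% lower of all tested genes. At 18 months 4.17% were higher and 25% lower, against 14.7% and 17.4% of all tested genes. Rragd, a GTPase that tethers mTORC1 to lysosomes, had 11.8 and 14.9 CPM in KO and 40.3 and 48.1 CPM in WT at 6 months (3.31-fold lower, -1.73, edgeR adjusted p = 1.04e-09). Lamtor4 and Lamtor1, parts of its anchor, were lower in KO at 18 months by -0.91 and -0.63 on the log2 scale. Mitf, a factor of the same family as Tfeb, was higher in KO at 6 months (0.78, edgeR adjusted p = 0.000134), and Zkscan3, described as a repressor of lysosomal genes, was higher in KO at 18 months (0.23, adjusted p = 0.00459).

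Some counts can be affected by genes with overlapping exons, and no source used here says whether strand was used. Use of strand would not separate overlaps on the same strand. Such overlaps are those of Ctsd with Gm49369 (808 bases), Ctsl with the pseudogene Gm49230 (395 bases) and Glb1 with Tmppe (165 bases). Exons of Ctsl overlap an antisense gene, Gm47123, over 1742 bases, and those of Ctsb overlap Fdft1 over 774 bases. Overlaps of Lamp1 with Grtp1 (249 bases), Npc1 with Rmc1 (511 bases) and Atp6v1g2 with Nfkbil1 (144 bases) are short beside their exon lengths of 2675, 11317 and 2510 bases.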

How the data were processed

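The authors deposited raw counts of reads per gene for each library. The submitters' processing notes name the mm10 build and the tools featureCounts 1.5.0-p1, STAR 2.5.2a and CASAVA 1.8.2. The sources used here do not state the annotation release, whether strand was used or how multi-mapping reads were counted. Symbols, positions and exon lengths came from GENCODE M21. The 8 libraries were fitted as 4 groups in R 4.3.3 with edgeR 4.0.16 (F test after a quasi-likelihood fit, filterByExpr at a minimum count of 10, TMM factors, Benjamini-Hochberg adjustment over 18205 genes, threshold 0.05; 4 residual degrees of freedom, common biological coefficient of variation 0.0539). CPM are counts over TMM-adjusted totals. Libraries of a group differed by a chi-square of 2.61 to 4.86 per gene, so none was counted as 1 library deposited again. Depth limits precision most for Atp6v1g2, Cln6 and Glb1, the members with the lowest FPKM.

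The members and the gene lists were chosen with earlier results of these data known. Values are given for up to 3 members of each role with the smallest p in each genotype comparison, the 3 with the smallest p in each direction of the interaction, Tfeb and pairs of paralogs; the remaining members and the promoter windows shown were chosen after their values were seen. Other lists give counts and genes with the smallest p. Alternatives were other scalings, no filter, DESeq2, a replicate block, removal of Gm26917 and mitochondrial genes, pairwise fits and each library left out. The method was tested on simulated data. Promoter windows and their build came from RefSeq. DNA data of the same mice were not analysed here.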

Additional observations from a re-analysis of the deposited data

Results flagged for a closer look

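In 35 of the 47 genes the genotype difference at 18 months differed from that at 6 months by the interaction test (edgeR adjusted p under 0.05, as in 39.1% of all tested genes). Some of these calls were lost with DESeq2, under other scalings or without 1 library, as given above. The interaction value, on the log2 scale, is negative where KO stood lower against WT at 18 than at 6 months. Among the proton pump genes the values were Atp6v1a -0.42, Atp6v1b2 -0.50, Atp6v1d -0.80, Atp6v1e1 -0.53, Atp6v1f -0.56, Atp6v1g1 -0.64, Atp6v1h -0.43, Atp6v0b -0.69, Atp6v0c -0.82, Atp6v0d1 -0.37, Atp6v0e2 -0.88, Atp6ap1 -0.83 and Atp6ap2 -0.86. Hydrolases with a negative value were Ctsa -0.45, Ctsb -0.47, Ctsz -0.41, Lgmn -0.68 and Ppt1 -0.54, and those with a positive value were Ctsf 0.74, Ctsl 0.64, Gaa 0.55, Glb1 0.99 and Asah1 0.71. For the soluble cofactors the values were Psap -0.32 and Npc2 -1.01. Membrane proteins gave Lamp1 -1.11, Lamp2 -0.72, Npc1 -0.58, Cln3 -0.52, Scarb2 -0.97, Laptm4a 0.27 and Laptm4b -0.82. Sorting receptors and the transcription factor gave Sort1 -0.65, M6pr -0.72 and Tfeb -0.73. WT at 6 months, the group that stood apart from the others, enters each of these values, and glial markers moved between the same groups; their part was not tested.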

How the results depend on the processing

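With 2 libraries a group and 4 residual degrees of freedom, each call rests on few libraries. No called member turned its direction under any alternative run. Scaling to library totals moved the median of all genes by -0.10 and 0.09 for 18 against 6 months in WT and KO, beside the shifts given above. Under it, the members higher and lower in KO numbered 12 and 11 at 6 months and 5 and 19 at 18 months, and those higher and lower at 18 months in KO 8 and 3. The pump medians became -0.32 (KO against WT at 18 months), 0.23 (age in WT) and -0.35 (interaction), and the hydrolase medians -0.28 and -0.08 (KO against WT at 6 and 18 months), -0.26 and 0.06 (age in WT and KO) and 0.16 (interaction). DESeq2 lost Atp6v1d, Ppt1, Tfeb, Glb1 and Laptm4a in KO against WT at 6 months (adjusted p = 0.102, 0.091, 0.0848, 0.0832 and 0.155). For KO against WT at 18 months, DESeq2 gave 1 member higher and 28 lower. The lower calls it lost were Atp6v1g1, Atp6v1g2 and Atp6v1h (adjusted p = 0.128, 0.128 and 0.063). It also gave 6 members lower at 18 than at 6 months in KO, and a hydrolase median of -0.02 for age in KO. Upper-quartile scaling gave 8 lower at 18 months in KO, and hydrolase medians of -0.18 and -0.19 (KO against WT at 6 and 18 months) and -0.01 (age in KO). Without the filter, 9 were lower at 18 months in KO, and the hydrolase medians were -0.19 (KO against WT at 18 months), -0.11 (age in WT) and 0.00 (age in KO). The cause of these shifts was not tested, apart from the shift of all genes under library totals.

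With 1 library left out, the members higher in KO at 18 months numbered 1 to 3 and those lower 23 to 31, those lower at 18 months in KO 3 to 15, and the hydrolase medians were -0.27 to 0.01 for KO against WT at 6 months, -0.27 to -0.17 for KO against WT at 18 months, -0.17 to 0.08 for 18 against 6 months in WT, -0.15 to -0.01 for 18 against 6 months in KO and -0.09 to -0.01 for the interaction. Of the calls at 6 months 11 of 16 higher and 6 of 8 lower held in every such fit, and at 18 months 1 of 3 and 19 of 31. The lone library of such a group is assumed to vary like the other groups. Without both WT libraries of 6 months, an alternative chosen after seeing the data, 3 were higher and 30 lower in KO at 18 months.

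A replicate block kept every call and gave 17 higher and 9 lower in KO at 6 months, adding Mcoln1 (adjusted p = 0.0319) and Atp6v0a1 (adjusted p = 0.0328). The numbers do not pair libraries in the labels, and differences between replicates correlated between groups at -5.24e-06 to 0.0758.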
